A study of Sus scrofa with 18 samples.

Results

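The HOX genes of the HOXA, HOXB, HOXC and HOXD clusters were described in subcutaneous fat (SAF) and visceral fat (VAF) of Bama pigs, a miniature breed. Members were taken by symbol alone: every row of the count table named HOX, a cluster letter from A to D and a paralog number. This rule found 36 of 29884 genes, namely 11 of HOXA, 8 of HOXB, 9 of HOXC and 8 of HOXD. SAF was taken from the back at the level of the last ribs, and VAF from the fat beside the kidney. The 9 donors were males of a single sire, fasted before sampling, and were 1, 3 or 6 months old, with 3 libraries in each of the 6 groups of depot and age. Libraries are named by depot, age in months and number, so that VAF3-3 is VAF library 3 of 3 months.

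HOX genes encode homeodomain transcription factors that pattern the body axis from head to tail. Their order along each cluster follows the order in which they are used along the axis, so that low paralog numbers belong to anterior positions and paralog groups 9 to 13 to posterior ones. Members with the same number in different clusters are paralogs that arose when an ancestral cluster was duplicated. Adult connective tissue and fat cells keep a part of this positional code, and fat depots are known to differ in it.

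On Sscrofa11.1 the HOXA members lie on the plus strand at chr18:45373340-45480306, the HOXB members on the minus strand at chr12:24784953-24950661, the HOXC members on the plus strand at chr5:19151096-19268267 and the HOXD members on the plus strand at chr15:81893997-81990026. The homeobox is the coding stretch of 180 bases for the DNA-binding homeodomain, and a homeobox was found in all 36 members. Those of paralog group 10 are printed because HOXC10 and HOXA10 were high in some SAF libraries and near 0 in others, whereas HOXD10 was not. Sequences run 5′ to 3′ on the strand of the gene, were read from the Sscrofa11.1 genome with its RefSeq annotation, and capitals mark the 49 bases that are not the same in all 3 genes.
HOXA10 (chr18:45401683-45401862): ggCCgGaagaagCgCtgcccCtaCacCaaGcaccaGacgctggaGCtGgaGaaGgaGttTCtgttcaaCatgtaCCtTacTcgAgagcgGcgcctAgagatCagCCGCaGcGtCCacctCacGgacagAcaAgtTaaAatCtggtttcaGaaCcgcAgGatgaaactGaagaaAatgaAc
HOXC10 (chr5:19201900-19202079): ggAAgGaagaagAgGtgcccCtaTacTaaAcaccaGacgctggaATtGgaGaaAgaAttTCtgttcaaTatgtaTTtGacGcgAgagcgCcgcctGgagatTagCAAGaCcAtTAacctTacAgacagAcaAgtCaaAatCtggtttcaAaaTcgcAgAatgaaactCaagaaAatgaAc
HOXD10 (chr15:81920233-81920412): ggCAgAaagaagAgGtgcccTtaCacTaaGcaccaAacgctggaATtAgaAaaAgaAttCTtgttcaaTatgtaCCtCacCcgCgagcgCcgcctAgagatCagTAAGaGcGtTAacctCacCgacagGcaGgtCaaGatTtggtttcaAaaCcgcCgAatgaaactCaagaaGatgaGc

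Homeoboxes with the same paralog number shared 69.4% to 91.7% of their bases over 34 pairs. The longest exonic stretch that 2 members have in common without overlapping was 90 bases, between HOXA6 and HOXA7, and in every other pair it was at most 42 bases, shorter than the reads. By the annotation 7 members overlap another member (HOXA3 to HOXA6 and HOXD9 to HOXD11), so that the split of reads among these is uncertain. In all, 17 members overlap some annotated gene, several of them an antisense gene. The strand setting of the counting was not given in the sources used here, so reads of such pairs cannot be told apart.

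Several libraries stood apart before any HOX gene was compared. Total counts ranged from 16404239 to 22857354. The age label of VAF6-1 says 3 months and that of VAF3-3 says 6 months, against their library names, which were followed here. VAF6-3 was left out of the tests, following the methods of the study, and its values are given apart. VAF3-1 and VAF3-2 held a summed CPM (counts per gene relative to the library total as scaled by edgeR's TMM) of 2195 and 958 over the 11 measured urothelium markers, the lining of the urinary tract, against 0.5 to 11.3 in the other 16 libraries, with KRT20 at 0 in both. Their smooth muscle markers summed to 9686 and 8425 CPM against 483 to 1473, and their 10 adipocyte markers to 6000 and 5204 CPM against 11421 to 20836. The library labelled VAF1-1 had SAF-like levels of several position genes, described with them. All SAF libraries but SAF6-3 differ from the VAF libraries in the reads that the study's filter removed for unread bases. At 1 and 3 months this difference cannot be told apart from depot, and the averaged comparison includes the same libraries.

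Of the 36 members, 32 had more than 3 counts in at least 1 library and 22 in all 18. In paralog groups 1 to 8, 19 of 21 members were detected in every library of both depots, whereas in groups 9 to 13 only 3 of 15 were: HOXA9, HOXC9 and HOXD9. HOXB13, HOXC12 and HOXD12 had 0 counts throughout, which allows at most 3 counts a library, or 0.114 to 0.187 CPM. HOXB1 had 1 count, in VAF3-3. HOXB4, HOXB9 and HOXD4 were not analysed here. The highest paralog number at 1 CPM or more was 8 for HOXB in all 18 libraries. No HOXB member analysed here lies between HOXB8 and HOXB13. With HOXB13 at 0 counts, 8 was therefore the highest number that HOXB could show. For HOXA, HOXC and HOXD the highest number depended on the library.

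**Figure D1:**
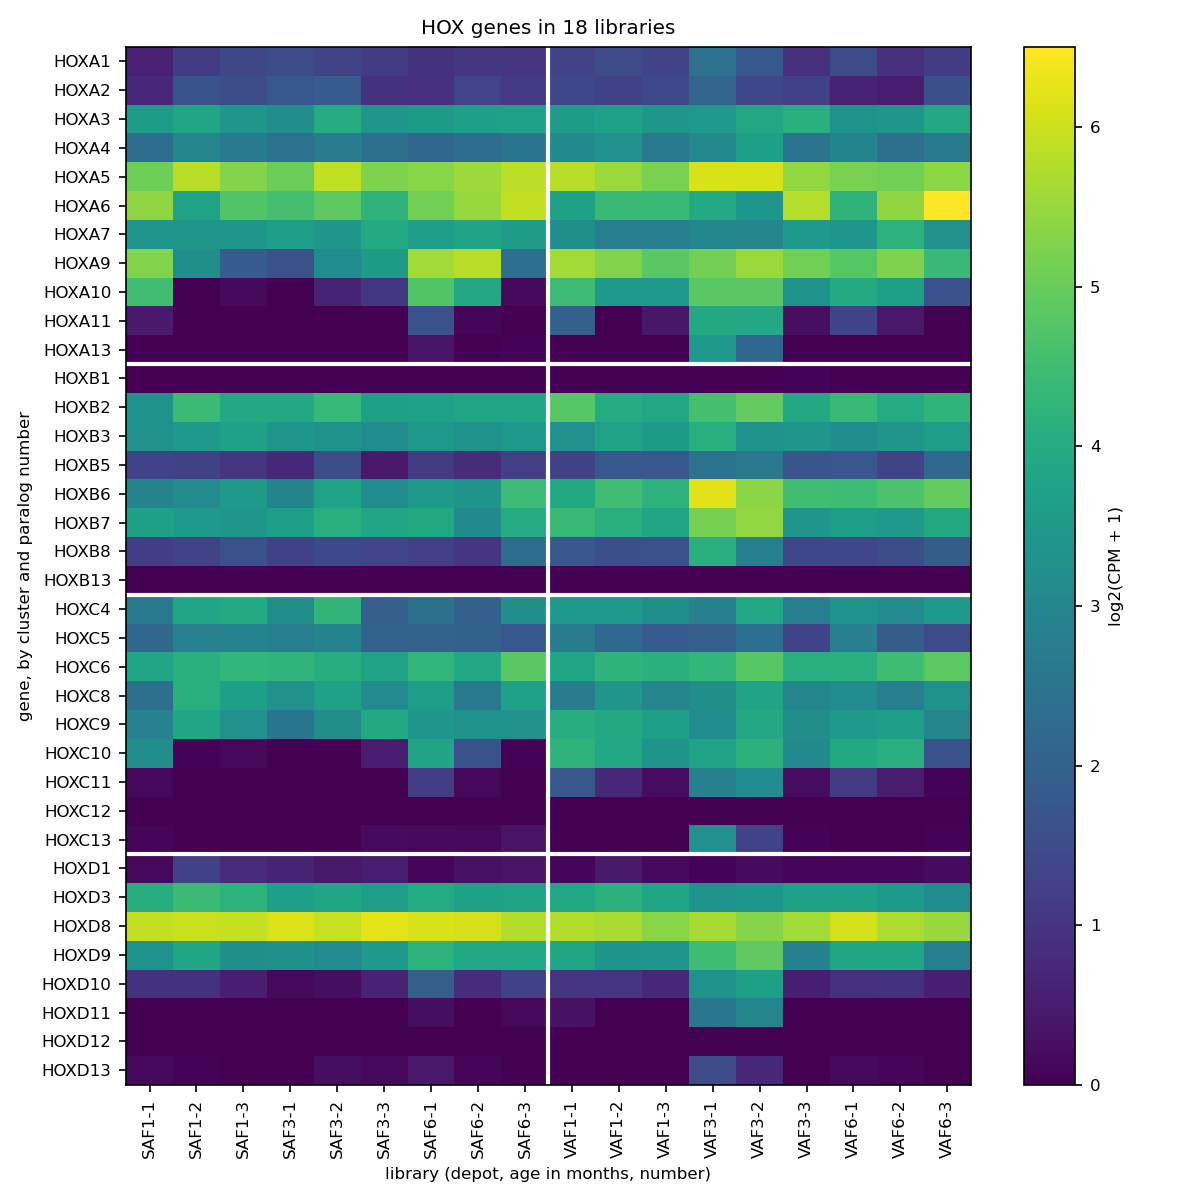
Each row is a member by cluster and paralog number, each column a library, with the 9 SAF libraries left of the white line and the 9 VAF libraries right of it, and the colour is log2(CPM + 1). The low paralog numbers are present in all libraries, HOXA10 and HOXC10 separate the libraries within SAF, and HOXA13, HOXC13 and HOXD11 appear in VAF3-1 and VAF3-2.

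Per kilobase of exon, the levels over the 18 libraries were led by HOXA5 (median 20.8 CPM per kb, 15.7 to 34.0) and HOXD8 (13.2, 9.3 to 17.6). HOXA5 overlaps HOXA3 and HOXA6, so its share of the reads is uncertain. HOXA7 (9.85) and HOXB7 (9.4) followed, with ranges of 5.94 to 17.5 and 5.42 to 30.6 that overlapped each other and that of HOXD8. HOXB6 (5.89), HOXC9 (5.85) and HOXA9 (5.24) came next and did not differ beyond their spread. The steadiest members were HOXD8, HOXA3, HOXB3 and HOXA5, whose highest library had 1.89, 1.94, 2.07 and 2.16 times the CPM of the lowest. HOXA9 spanned 26.8-fold, HOXB8 15.6-fold and HOXB6 11.4-fold between libraries.

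Averaged over the 3 ages, 4 of the 32 members tested were called, which took a change of over 1.5-fold and an edgeR p under 0.05 after Benjamini-Hochberg adjustment, and all 4 were higher in VAF: HOXB5, HOXB6, HOXC10 and HOXC11. Over all 16664 genes tested, 4.09% were called, 2.9% with VAF higher. The members' median log2FC (SAF over VAF) was -0.32, beside -0.01 over all genes. Several posterior members reached the test only through the libraries in which they are high, so neither the count nor the median speaks for the whole family. Without VAF3-1 and VAF3-2 1 member stayed called, HOXB6, beside 1.66% of all genes, and with the 1-month and 6-month libraries alone edgeR called 0 of 28, beside 0.471%, with 3 at an unadjusted p under 0.05.

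**Figure D2:**
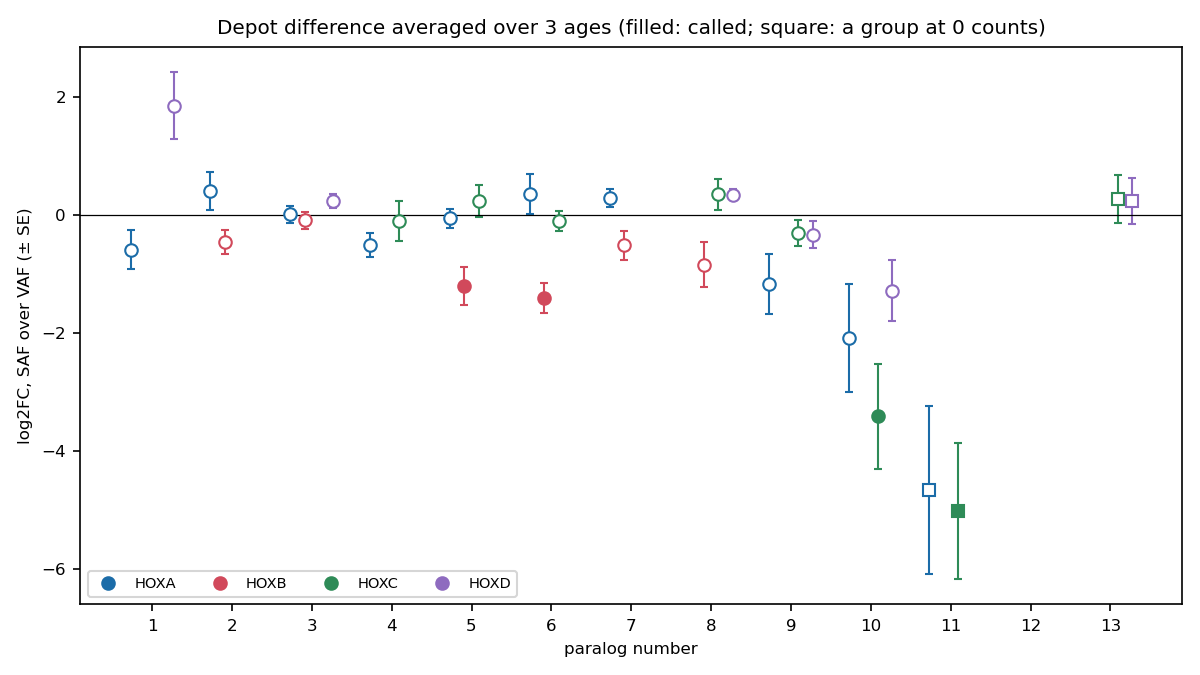
Points are the log2FC of SAF over VAF averaged over 3 ages with its SE from edgeR, against paralog number and coloured by cluster. Filled points are called, and squares have a group at 0 counts, so that their value depends on the prior count. HOXA13 and HOXD11 are not drawn because their fits gave no usable error. From group 9 to group 11 the HOXA and HOXC values fall from between -0.31 and -1.17 to between -4.66 and -5.01. HOXA11 was not called, and HOXA11 and HOXC11 had 0 counts in SAF at 3 months and were highest in VAF3-1 and VAF3-2. In group 13, HOXC13 and HOXD13 lie at 0.27 and 0.23 and were not called. Both had 0 counts in VAF at 1 month and were highest in VAF3-1 and VAF3-2. Their values therefore depend on the prior count and do not show whether the fall goes on.

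HOXB6, a middle-trunk member, differed most steadily between depots. In SAF it had 6.5, 7.77 and 10.3 CPM at 1 month, 6.6, 12.7 and 7.95 at 3 months and 10.2, 9.33 and 21.1 at 6 months. In VAF it had 14.5, 21.6 and 17.6 CPM at 1 month and 73.7 and 40.2 in VAF3-1 and VAF3-2. VAF3-3 had 21.8 CPM, and VAF6-1, VAF6-2 and VAF6-3 had 21.3, 24.5 and 30.3. At each age every VAF library lay above every SAF library, and over all ages only SAF6-3 reached into the VAF range. The averaged log2FC was -1.41 ± 0.25 (SE; edgeR quasi-likelihood test, adjusted p = 0.0078). HOXB6 stayed called when any of the 17 libraries was left out (adjusted p 0.0009 to 0.026), and without VAF3-1 and VAF3-2 its log2FC was -1.05 ± 0.22 (edgeR, adjusted p = 0.033). With 1 and 6 months alone it was -0.95 ± 0.24 (edgeR, adjusted p = 0.093), which misses the threshold.

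HOXB5, next to HOXB6 in the cluster, was low in every library. It had 1.49, 1.38 and 0.99 CPM in SAF at 1 month, 0.68, 1.89 and 0.36 at 3 months and 1.12, 0.77 and 1.33 at 6 months. VAF had 1.42, 2.49 and 2.38 CPM at 1 month, 4.49 and 5.03 in VAF3-1 and VAF3-2, 2.27 in VAF3-3, and 2.41, 1.53 and 3.68 at 6 months. The VAF groups were higher at 3 and 6 months without overlap, and overlapped SAF at 1 month. The averaged log2FC was -1.20 ± 0.32 (edgeR, adjusted p = 0.044). Of the 17 fits that each left out 1 library, HOXB5 was called in 3 (without SAF3-2, VAF1-1 or VAF3-3), with adjusted p from 0.012 to 0.15. The other HOXB members, HOXB2, HOXB3, HOXB7 and HOXB8, had averaged log2FC from -0.85 to -0.09 and were not called. HOXB7 and HOXB8 were highest in VAF3-1 and VAF3-2, at 35.0 and 43.0 CPM and at 16.4 and 6.05 CPM, while VAF3-3 had 9.48 and 1.68 CPM, within the range of SAF.

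HOXC10, a posterior member best known for the lumbar region, was near 0 in 6 of the 9 SAF libraries. It had 8.31, 0.05 and 0.1 CPM in SAF at 1 month, 0, 0 and 0.41 at 3 months and 12.9, 2.1 and 0.05 at 6 months. In VAF it had 17.9, 13.8 and 9.26 CPM at 1 month and 12.4 and 17.2 in VAF3-1 and VAF3-2. VAF3-3 had 7.67, VAF6-1 and VAF6-2 had 14.3 and 15.9, and VAF6-3 had 2.09 CPM. Among the tested libraries VAF lay above SAF at each age, but SAF1-1 and SAF6-1 reached the VAF range of other ages. The averaged log2FC was -3.41 ± 0.89 (edgeR, adjusted p = 0.042). It was called in 4 of the 17 fits without 1 library (without SAF1-1, SAF6-1, SAF6-3 or VAF3-3), with adjusted p from 0.0084 to 0.099, and without the library labelled VAF1-1 it was -3.33 ± 0.94 (edgeR, adjusted p = 0.062). Without VAF3-1 and VAF3-2 its log2FC was -3.18 ± 0.98 (edgeR, adjusted p = 0.15).

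HOXA10 varied in the same libraries. It had 21.7, 0 and 0.1 CPM in SAF at 1 month, 0, 0.55 and 1.08 at 3 months and 25.6, 14.2 and 0.11 at 6 months. VAF had 21.1, 10.5 and 10.4 CPM at 1 month, 27.7 and 27.8 in VAF3-1 and VAF3-2, 9.22 in VAF3-3, and 14.8, 11.9 and 2.09 at 6 months. SAF1-1, SAF6-1 and SAF6-2 were within the VAF range and the other SAF libraries below it. The averaged log2FC was -2.08 ± 0.92 (edgeR, adjusted p = 0.18). Leaving out SAF1-1 brought the call (edgeR, adjusted p = 0.020), which the other 16 such fits did not.

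HOXA9 was present in every library, at 37.8, 8.43 and 2.72 CPM in SAF at 1 month, 2.05, 7.91 and 10.7 at 3 months and 47.8, 55.0 and 4.15 at 6 months. VAF had 47.2, 37.6 and 27.7 CPM at 1 month, 34.3 and 44.8 in VAF3-1 and VAF3-2, 33.6 in VAF3-3, and 27.2, 36.8 and 20.2 at 6 months. The 3 SAF libraries with high HOXA10 were again the highest of SAF, and the depots did not overlap at 3 months only. The averaged log2FC was -1.17 ± 0.50 (edgeR, adjusted p = 0.17). HOXC10 in SAF6-2 was low at 2.1 CPM, although HOXA9 and HOXA10 were high there.

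**Figure D3:**
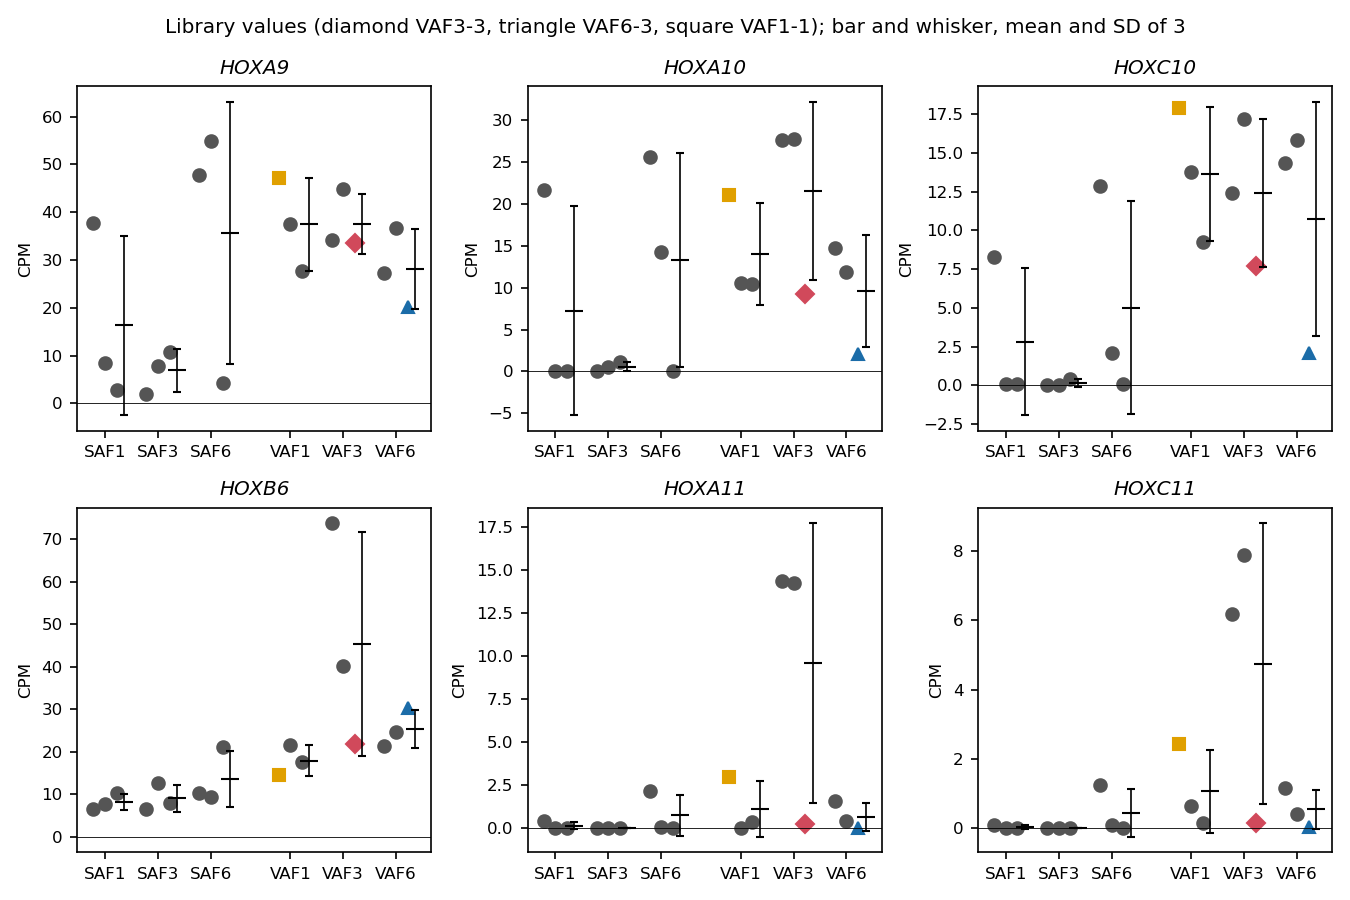
CPM of 6 members by group, with 1 point a library and the mean and SD of 3 libraries beside them; the diamond is VAF3-3, the triangle VAF6-3 and the square the library labelled VAF1-1. SAF at 1 and 6 months is split for HOXA9, HOXA10 and HOXC10, and HOXA11 and HOXC11 are highest in VAF3-1 and VAF3-2, with VAF3-3 at 0.21 and 0.17 CPM.

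The other members of groups 9 and 10 did not show this split. HOXC9 had 6.44, 13.4 and 8.72 CPM in SAF at 1 month, 4.78, 8.34 and 14.5 at 3 months and 9.74, 9.05 and 8.78 at 6 months. In VAF it had 15.6, 14.4 and 11.7, then 7.92 and 14.1 in VAF3-1 and VAF3-2, 8.21 in VAF3-3, and 10.3, 11.4 and 6.98. Over all ages the depots overlapped, and its averaged log2FC was -0.31 ± 0.22 (edgeR, adjusted p = 0.38). HOXD9 had 8.97, 13.1 and 8.46 CPM in SAF at 1 month, 8.59, 7.73 and 10.5 at 3 months and 17.3, 13.7 and 13.7 at 6 months. VAF had 13.1, 9.28 and 9.54, then 21.5 and 29.2 in VAF3-1 and VAF3-2, 6.28 in VAF3-3, and 13.3, 13.2 and 6.0. Its highest values were those of VAF3-1 and VAF3-2. HOXD10 stood at 0.11 to 2.94 CPM in SAF (0.94, 0.92 and 0.47, then 0.11, 0.18 and 0.57, then 2.94, 0.77 and 1.38). In VAF it had 1.0, 0.99 and 0.66 CPM at 1 month, 9.18 and 12.1 in VAF3-1 and VAF3-2, 0.46 in VAF3-3, and 0.82, 0.92 and 0.46 at 6 months. HOXD10 in VAF was at the level of SAF except in VAF3-1 and VAF3-2.

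Members of groups 11 to 13, which pattern the sacral and tail end, the limb and the urogenital tract, were almost absent from SAF. HOXA11 had 0.39, 0 and 0 CPM in SAF at 1 month, 0 in all 3 libraries at 3 months and 2.12, 0.06 and 0 at 6 months. In VAF it had 2.95, 0 and 0.33, then 14.4 and 14.2 in VAF3-1 and VAF3-2, 0.21 in VAF3-3, and 1.53, 0.37 and 0. HOXC11 had 0.11, 0 and 0 CPM in SAF at 1 month, 0 throughout at 3 months and 1.25, 0.11 and 0 at 6 months. VAF had 2.42, 0.64 and 0.16, then 6.18 and 7.88 in VAF3-1 and VAF3-2, 0.17 in VAF3-3, and 1.17, 0.43 and 0.04. Both genes were highest in VAF3-1 and VAF3-2 and next highest in the library labelled VAF1-1 and in SAF6-1 and VAF6-1. HOXC11 was called in the averaged test (edgeR, adjusted p = 0.031) and in 7 of 17 fits without 1 library (SAF6-1, SAF6-3, VAF1-1, VAF1-2, VAF1-3, VAF3-1 or VAF3-3 left out; adjusted p 0.0051 to 0.1). Because SAF at 3 months had no count, its fitted fold depends on the prior count.

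HOXA13 had 10.6 and 3.61 CPM in VAF3-1 and VAF3-2, 0.31 in SAF6-1, 0.05 in SAF6-3 and 0 in the other 14 libraries, VAF3-3 included. HOXC13 had 8.76 and 1.47 CPM in VAF3-1 and VAF3-2, 0.04 in VAF3-3 and at most 0.27 elsewhere. HOXD11 had 4.91 and 6.91 CPM in VAF3-1 and VAF3-2, 0.24 in the library labelled VAF1-1, 0.19 and 0.11 in SAF6-1 and SAF6-3, and 0 in the other 13. HOXD13 reached 1.85 and 0.66 CPM in the same pair of VAF libraries and at most 0.37 elsewhere. Summed over groups 11 to 13, VAF3-1 and VAF3-2 had 46.6 and 34.8 CPM, VAF3-3 had 0.42, and the highest of the other libraries was VAF1-1 with 5.61. The urothelium and smooth muscle markers were high in the same pair of libraries and not in VAF3-3 (6.74 and 733 CPM). The mesothelium markers summed to 1037 and 634 CPM there against 3.11 to 41.1 in the other 16 libraries, and the skin markers to 71.3 and 35.3 against 2.24 to 6.43. Most of the mesothelium sum in this pair was KRT8 (421 and 268 CPM), KRT18 (112 and 56.3) and KRT19 (503 and 309). UPK3B, LRRN4, BNC1 and ITLN2 of the same list had 0 to 0.84 CPM there. Most of the skin sum was IVL (62.8 and 28.6 CPM), with KRT1 at 0. The part of these marker lists in the posterior HOX levels was not tested. In bulk tissue, fewer cells of a type and less RNA per cell cannot be told apart.

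**Figure D4:**
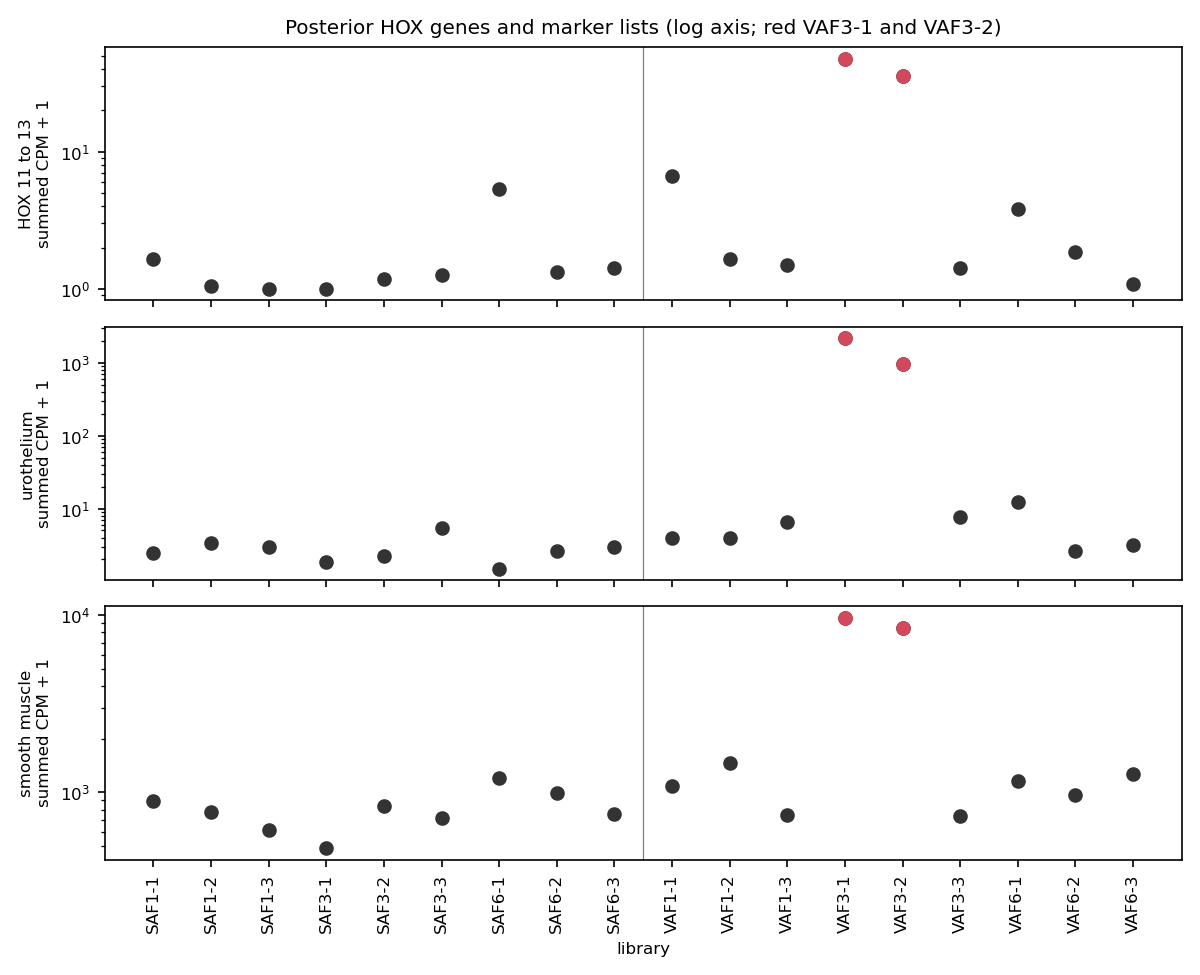
Summed CPM + 1 on a log axis in each library for HOX members of groups 11 to 13, for 11 urothelium markers and for 10 smooth muscle markers, with VAF3-1 and VAF3-2 in red. In all 3 panels these are the highest, at 46.6 and 34.8 CPM for the HOX sum, and VAF3-3 lies among the other libraries.

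At single ages the main test called no member. At 1 month 0 of 25 members were called, beside 0% of all genes, with 4 at an unadjusted p under 0.05; DESeq2 called HOXB6 alone (log2FC -1.14, adjusted p = 0.00795), beside 0.842% of all genes. At 6 months, with 2 VAF libraries, 0 of 27 were called, beside 0% of all genes, 0 at an unadjusted p under 0.05, and DESeq2 called 0, beside 0.867%. At 3 months 0 of 24 were called, beside 0.0401% of all genes, with 7 at an unadjusted p under 0.05, and DESeq2 called 8 of 33 beside 4.35%: HOXA9, HOXA10, HOXA11, HOXB6, HOXB8, HOXC10, HOXC11 and HOXD10, all higher in VAF. Of these, HOXA11, HOXB8, HOXC11 and HOXD10 were high only in VAF3-1 and VAF3-2, with 0.21, 1.68, 0.17 and 0.46 CPM in VAF3-3. Without VAF3-3, 14 of 31 members were called at 3 months with edgeR, all higher in VAF, beside 17.6% of all genes, and the 2 remaining VAF libraries are those with the urothelium markers.

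Members whose groups did not overlap were counted beside the same count over all genes. At 1 month 3 of 25 members were higher in every VAF library (HOXB6, HOXB7, HOXC10; all genes 8.79%) and 2 in every SAF library (HOXA7, HOXD8; all genes 8.7%). At 3 months 5 of 24 were higher in VAF (HOXA9, HOXA10, HOXB5, HOXB6, HOXC10; all genes 7.82%) and 1 in SAF (HOXD8; all genes 8.17%). At 6 months, with 2 VAF libraries, 5 of 27 were higher in VAF (HOXB2, HOXB5, HOXB6, HOXC9, HOXC10; all genes 13.8%) and 5 in SAF (HOXA2, HOXA3, HOXA5, HOXD3, HOXD9; all genes 14.5%). HOXB6 and HOXC10 were on the VAF list at each age. At 6 months HOXC10 was on it only because VAF6-3 was left out, which had 2.09 CPM against 12.9 in SAF6-1. With VAF6-3, HOXC9, HOXA2, HOXA3 and HOXA5 would also not be separated at 6 months, whereas HOXB6, at 30.3 CPM in VAF6-3, would be. At 3 months HOXA10, HOXB5 and HOXC10, and at 1 month HOXC10, passed the filter on low counts only through VAF, so that their place in these counts was largely set by the filter and the counts are not read against the shares of all genes. HOXD8 had an averaged log2FC of 0.34 ± 0.10 toward SAF (edgeR, adjusted p = 0.057), and HOXD1 of 1.85 ± 0.57 (edgeR, adjusted p = 0.073), neither called.

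Between ages the main test called no member. In SAF, 0 of 23 members were called between 1 and 3 months, beside 0.101% of all genes, with 1 at an unadjusted p under 0.05, and 0 of 24 between 3 and 6 months, beside 0%, with 6. In VAF, 0 of 27 were called between 1 and 3 months, beside 0% of all genes, with 3 at an unadjusted p under 0.05, and 0 of 31 between 3 and 6 months, beside 0%, with 5. DESeq2 called 0 in both SAF comparisons, beside 2.5% and 1.61% of all genes. In VAF it called HOXD10 between 1 and 3 months (log2FC -3.05, adjusted p = 0.021), beside 2.82%, and 0 between 3 and 6 months, beside 2.4%. Tests of depot by age called 0 of 32 members, beside 0% of all genes, for 3 against 1 month (1 at an unadjusted p under 0.05) and for 6 against 3 months (11), and DESeq2 called HOXD10 in both, beside 0.442% and 0.467%. In VAF at 3 months HOXD10 was high only in VAF3-1 and VAF3-2 (9.18 and 12.1 CPM) and had 0.46 CPM in VAF3-3. Without VAF3-3, 9 of 31 members were called between 1 and 3 months in VAF, beside 6.44% of all genes, and 10 of 31 between 3 and 6 months, beside 11%. VAF at 3 months was then VAF3-1 and VAF3-2 alone, the libraries with the urothelium and smooth muscle markers, and the part of these markers was not tested.

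Other position genes of fat depots, from a list of 15 transcription factors of which 12 were tested, were called in 9 cases in the averaged comparison, beside 1.18% of all genes with SAF higher and 2.9% with VAF higher. EN1, IRX3, IRX5, SHOX2, TBX15 and ZIC1 were higher in SAF, and GATA6, TCF21 and WT1 higher in VAF. GATA6, a zinc finger factor, had 4.5 to 7.71 CPM in SAF, 34.9 and 46.9 in VAF3-1 and VAF3-2 and 10.01 to 18.5 CPM in the other VAF libraries, without overlap between depots. TCF21, a factor of visceral mesoderm, had 0 to 0.56 CPM in SAF, 0.3 in the library labelled VAF1-1, 30.4 and 46.8 in VAF3-1 and VAF3-2 and 2.36 to 12.5 in the other VAF libraries. TBX15, chosen after its values were seen, a T-box factor of dorsal trunk mesoderm, had 77.4 to 151.9 CPM in SAF and 1.11 to 16.2 CPM in VAF, apart from 96.5 CPM in the library labelled VAF1-1. IRX3, an Iroquois homeobox factor, had 23.0 to 39.2 CPM in SAF, 27.2 in VAF1-1 and 0.88 to 4.86 in the other VAF libraries. WT1, a marker of visceral mesothelium and fat progenitors, had 0 to 0.8 CPM in SAF, 0.12 in VAF1-1 and 4.7 to 22.1 in the other VAF libraries. VAF1-1 was SAF-like in TCF21, TBX15, IRX3 and WT1, and VAF-like in GATA6 (18.5 CPM) and ZIC1 (0 CPM). EN1 and SHOX2 in this library are given after their values were seen. EN1, at 4.96 CPM, lay below every SAF library (11.6 to 22.7 CPM) and among the other VAF libraries (1.48 to 15.5 CPM). SHOX2, at 62.9 CPM, was the highest of all libraries in VAF1-1. HOXC10 of VAF1-1, at 17.9 CPM, was the highest of all libraries, and its HOXA10, at 21.1 CPM, lay both among the other VAF libraries and among the SAF libraries with high HOXA10 (14.2 to 25.6 CPM).

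**Figure D5:**
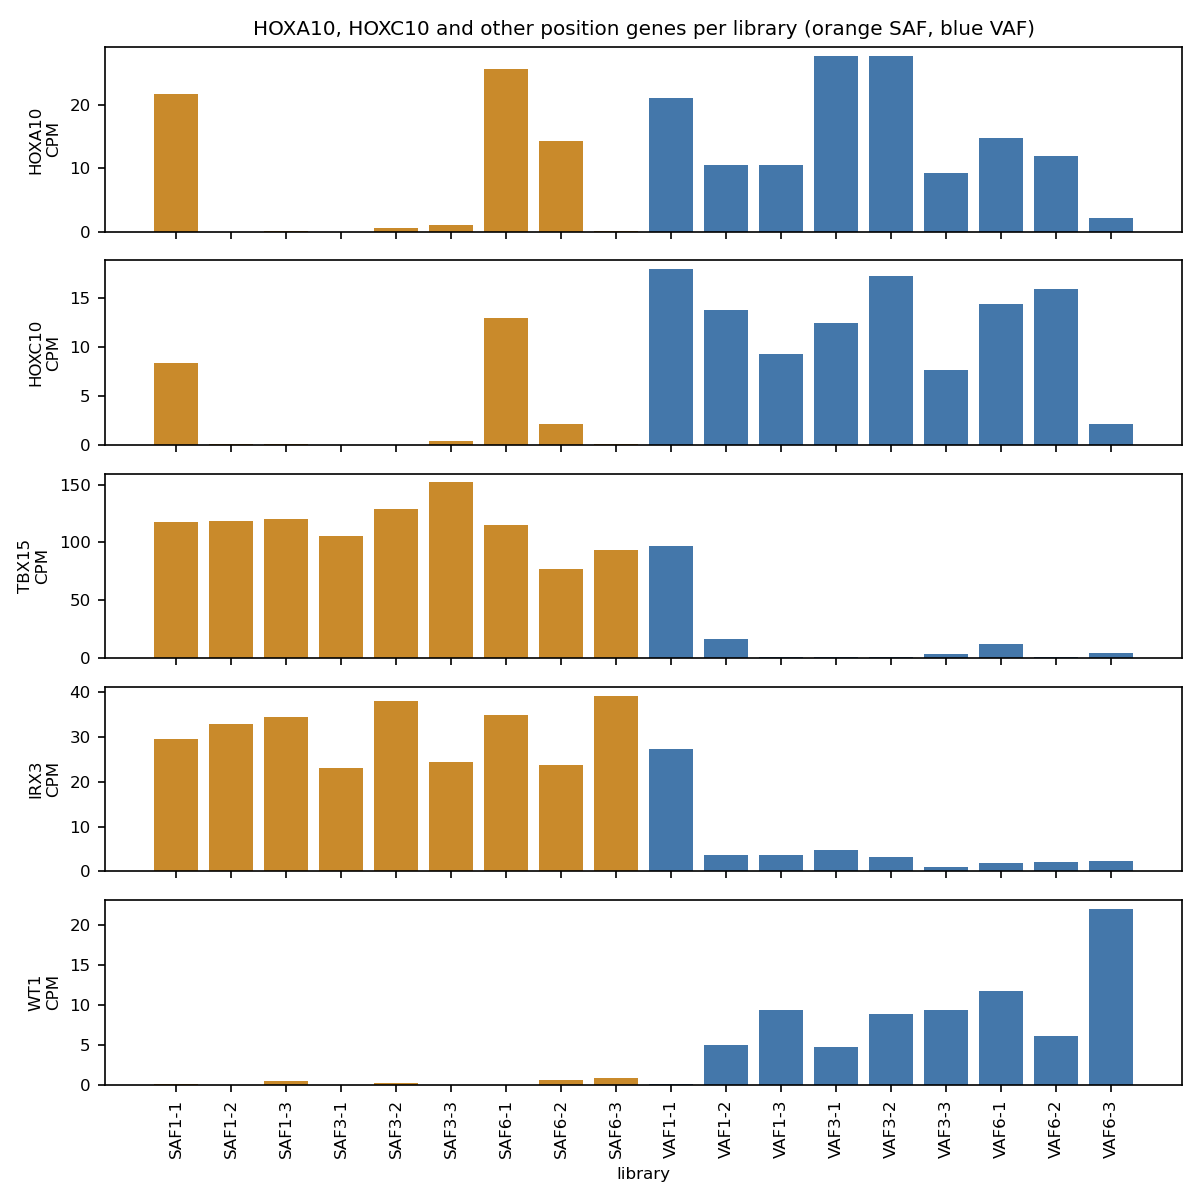
Bars from 0 show CPM per library for HOXA10, HOXC10, TBX15, IRX3 and WT1, with SAF in orange and VAF in blue. SAF1-1, SAF6-1 and SAF6-2 have HOXA10 between 14.2 and 25.6 CPM with TBX15 between 77.4 and 117.3 CPM, and VAF1-1 has 96.5 CPM of TBX15.

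SAF1-1, SAF6-1 and SAF6-2, the SAF libraries with high HOXA9 and HOXA10, had TBX15, IRX3 and WT1 at the levels of SAF. They had the lowest ZIC1 of SAF, at 0.94, 2.31 and 1.38 CPM, against 3.24 to 30.7 CPM in the other SAF libraries. Their TBX15 was 117.3, 115.4 and 77.4 CPM, their IRX3 29.5, 34.9 and 23.7 CPM and their WT1 0.06, 0 and 0.55 CPM. VAF6-3 had the highest WT1 of all libraries, 22.1 CPM, together with the lowest HOXA10 and HOXC10 in VAF.

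Among the cofactors that bind DNA together with HOX proteins, 1 of 11 genes was called in the averaged comparison, beside 4.09% of all genes. MEIS1 had 5.95 to 12.4 CPM in SAF, 6.08 in VAF1-1, 36.7 and 38.3 in VAF3-1 and VAF3-2 and 18.2 to 23.7 CPM in the other VAF libraries (log2FC -1.46 ± 0.25, edgeR, adjusted p = 0.0066). The 11 cofactors summed to 399 and 357 CPM in VAF3-1 and VAF3-2 against 196 to 293 in the other 16 libraries. Of 25 tested regulators of HOX expression (Polycomb, trithorax, CDX and retinoic acid genes), edgeR called 0, beside 4.09% of all genes, with 6 at an unadjusted p under 0.05, and DESeq2 called 1, beside 5.72% of all genes. Of 13 tested genes that flank the clusters, edgeR called LNPK and SKAP1 alone, beside 4.09% of all genes. LNPK beside HOXD was higher in SAF (log2FC 0.59 ± 0.14, edgeR, adjusted p = 0.033), just over the 1.5-fold limit. SKAP1 beside HOXB was higher in VAF (-1.68 ± 0.27, edgeR, adjusted p = 0.0052).

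Of 21 other annotated genes inside the clusters, 14 were tested in the averaged comparison and edgeR called 0, beside 4.09% of all genes, with 5 at an unadjusted p under 0.05, and DESeq2 called 4, beside 5.72%. A pair of uncharacterised antisense RNAs, chosen after their values were seen, are given beside their neighbours. LOC110260668 lies on the minus strand at chr5:19194155-19197371, between HOXC11 and HOXC10, and overlaps neither. It had 2.7, 6.31 and 0.17 CPM in SAF1-1, SAF6-1 and SAF6-2 and 0 in the other 6 SAF libraries, and 1.39 to 11.4 CPM in VAF except 0.19 in VAF6-3. LOC102160006 lies on the minus strand at chr18:45384466-45388260, next to HOXA11 without overlapping it, and had 11.2 and 19.0 CPM in VAF3-1 and VAF3-2, 6.91 in VAF1-1, 3.75 in SAF6-1, 1.7 in VAF6-1, 1.27 in SAF1-1, 0.25 in VAF3-3 and 0 to 0.73 in the other 11 libraries. The match with the neighbours was not complete: HOXC10 had 0.41 CPM in SAF3-3, where LOC110260668 had 0, and HOXA11 had 0 in VAF1-2, where LOC102160006 had 0.39.

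Of the marker lists of other tissues, the averaged comparison called KRT7 and UPK1B of 10 tested urothelium genes, CNN1, LMOD1 and TAGLN of 10 smooth muscle genes, KRT19 of 3 mesothelium genes and CD3E of 5 lymphoid genes, all higher in VAF, beside 4.09% of all genes. edgeR called 0 of 3 kidney tubule, 3 adrenal cortex, 6 skeletal muscle, 2 skin and 10 adipocyte genes tested, with 1, 1, 3, 0 and 1 at an unadjusted p under 0.05, and DESeq2 called 0, 0, 2, 0 and 1, beside 5.72% of all genes. The kidney tubule markers summed to 30.2 CPM in VAF3-3, the highest of all libraries, and the part of these lists in the HOX values was not tested.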

How the data were processed

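RNA-seq counts were used from 18 libraries of 2 fat depots. Per the labels and the study's methods, the authors cleaned the read pairs (fastp), mapped them to the Sscrofa11.1 genome by HISAT2, given as 2.0.4 in the submitters' processing notes, and obtained gene totals by HTSeq-count. The deposited values are these raw counts. The annotation release and the strand setting are not given in the sources used here. The members and gene lists were chosen with earlier results of these data known.

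Groups follow the library names, and for VAF6-1 and VAF3-3 the age label disagrees. All genes passing filterByExpr entered edgeR (version 4.0.16, R 4.3.3), with TMM scaling, the quasi-likelihood test, no block, and Benjamini-Hochberg adjustment. A gene was called when its adjusted p was below 0.05 and its change over 1.5-fold, the latter not asked for in the depot by age tests. Pairs of groups used their own libraries, and the averaged and depot by age tests used 17 libraries in a single fit, without VAF6-3. The averaged fit did not model that each pig gave both depots, since no source says that equal numbers mark the same pig. log2FC is SAF over VAF, or the younger over the older age, and its nominal SE was taken from the log2FC and the F statistic. CPM used TMM-scaled totals, and levels between genes were set per kilobase of exon. Positions and homeoboxes came from the genome and RefSeq annotation release 106 (Python 3.11.15, pandas 2.3.3, numpy 2.4.6; figures with matplotlib 3.10.9), and homeobox sequences of other paralog groups are not reported here. Values in every library were given for members of groups 9 to 13 that reached 1 CPM in 2 libraries and for members called between depots. Of other lists, at most 4 called genes with the smallest p were given with values, and exceptions are stated.

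On data simulated with an assumed dispersion of 0.1, which checks the scripts and not the power in these libraries, 95% of 200 genes changed 4-fold were recovered for SAF against VAF at 3 months among 15321 genes, with 3 false calls. For the averaged test 100% of 200 were recovered among 16192 genes, with 9 false calls, and for depot by age, 3 against 1 month, 55.5% of 200 among 16180 genes, with 6. Alternatives were DESeq2 1.42.0, its size factors in edgeR, no filter, no fold limit, all 6 groups in a single fit, a replicate block, VAF6-3 included, groups by the age label, CPM on raw totals or DESeq2 size factors, detection at 1 CPM, and each library left out in turn. Another 3, which left out several libraries, were chosen after seeing the data. Total counts had a median of 18901509, and 3 counts came to 0.114 to 0.187 CPM, which covers counting error only.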

Additional observations from a re-analysis of the deposited data

Results flagged for a closer look

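VAF6-3 was left out of the tests, and 26 of the 36 HOX members had more than 3 counts in it, above the limit that a count of 0 allows. HOXD1 had 4 counts in VAF6-3, whereas VAF6-1 and VAF6-2 had 3 or fewer. The edgeR tests of depot by age called 0 members, and no tested member had SAF and VAF apart without overlap in opposite directions at different ages. Groups of 3 libraries are too small for a test of single outlying libraries.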

How the results depend on the processing

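Of 165 recomputed counts and levels, 136 stayed within 1.5 times the count reported, or for levels within 1 SD over libraries, and 29 did not. For the averaged comparison, the only one with called members in the main test, 11 counts stayed and 16 did not. In the other comparisons the reported count was 0, which stayed only where the alternative also called 0. Averaged over ages, the fits without 1 library called 1 to 10 members: 10 without VAF3-3, beside 12.9% of all genes and with HOXD1 higher in SAF, and 1 without SAF1-2, SAF1-3, SAF3-1, SAF3-3, SAF6-2, VAF3-2, VAF6-1 or VAF6-2. HOXB5, HOXB6, HOXC10 and HOXC11, called in the main averaged test, kept their sign under its alternatives. HOXB7 and HOXD10, called only in an alternative, did not, with averaged log2FC from -0.66 to 0.08 and from -1.6 to 0.38. Without VAF3-1 and VAF3-2, or without these and VAF1-1, 1 member was called, and with 1 and 6 months only 0; these 3 were chosen after seeing the data, and fewer libraries enter each. DESeq2 called 1 member at 1 month, 8 at 3 months, 1 between 1 and 3 months in VAF and 1 in each depot by age test, where the main test called 0; the cause was not tested. All 6 groups in a single fit called 2 at 3 months, beside 2.73% of all genes. With groups by the age label, edgeR called 0 of 27 between depots at 3 months, beside 0.202% of all genes. There 14 had an unadjusted p under 0.05, against 7 in the main test. Between 3 and 6 months in VAF it called 0 of 31, beside 0%, with 12 at that level against 5. In the averaged test it called 4, beside 5.04%. Fits without 1 library called 0 to 14 members between depots at 3 months, 0 to 9 between 1 and 3 months and 0 to 10 between 3 and 6 months in VAF, and 0 to 2 and 0 to 7 in the depot by age tests, the highest in each case without VAF3-3. Where 1 VAF library of 6 months remained, it was assumed to vary like the other groups.

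Deviations from the group means correlated between same-numbered SAF and VAF libraries at -0.082 to 0.311 at 1 month, 0.035 to 0.408 at 3 months and 0.258 to 0.327 for 2 pairs at 6 months. Their means were 0.093, 0.205 and 0.292. Different-numbered libraries correlated at -0.298 to 0.229, -0.404 to 0.161 and -0.327 to 0.054. Deviations within a group cancel out, so the different-numbered values partly mirror the same-numbered ones. With 2 VAF libraries at 6 months the mirror is exact, as in SAF6-1 with 0.327 and -0.327. These values did not settle whether equal numbers mark the same pig. No source says so, and the main tests had no block. With the replicate block, 3 members were called between depots at 6 months, 11 between 3 and 6 months in VAF and 5 in the averaged test, beside 5.12%, 14.7% and 2.98% of all genes, against 0, 0 and 4 without the block.

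Scaling by raw totals or DESeq2 size factors kept the median summed HOX level within 1 SD over libraries, and detection at 1 CPM left 32 members in some library and 19 in all. Values under 0.114 CPM rest on fewer than 3 counts in every library.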
